A study of Homo sapiens with 4 samples.

Results

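The miRNAs recovered with the positive RNA probe to the FN1 3′-UTR were compared between 2 established human gastric cancer cell lines, HGC27 and AGS. HGC27 comes from an undifferentiated carcinoma and AGS from an adenocarcinoma of the stomach. Every entry of the count table, a mature miRNA name, was a member of the comparison, with no choice by value, and 684 of 843 entries had a count in at least 1 of the 2 positive probe libraries. Of these, 159 reached 100 counts summed over the pair and carried a ratio; the other 525 were counted only.

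In both lines the FN1 3′-UTR was stably overexpressed from a lentivirus, and each line was probed with the positive and, separately, with the negative RNA probe, which gave 4 libraries in 4 groups of 1. All 4 libraries carried the overexpressed FN1 3′-UTR, so none shows the lines without it, and whether a line was a single clone is not given in the sources used here. Probe-coated magnetic beads were incubated with lysate, and the small RNA that they retained was sequenced. The study's methods place antisense RNA on the beads but do not say whether it was the positive or the negative probe, so no value below is read as binding to a strand.

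A miRNA is a short RNA that guides an Argonaute protein to messenger RNAs. Its seed, bases 2 to 8 counted from the 5′ end, makes most of the contact with a target site, and those sites often lie in 3′-UTRs. Members with the same seed form a family that can recognise the same sites, although they may come from different hairpins on different chromosomes. A pull-down library reads what stayed on the beads, so the level of a miRNA in the cell and its recovery by the probe cannot be told apart.

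With the positive probe the let-7 family took a similar share of the counts in both lines, while most entries compared differed at least 2-fold in share. The 9 let-7 members took 37.3% of the HGC27 counts and 40.0% of the AGS counts. This likeness does not hold for every scaling, since the family sum was at least 2-fold higher in AGS with the TMM and DESeq2 scalings given below. The sum stayed within 2-fold with the authors' deposited score and with totals that leave out the largest 2 miRNAs. A single other miRNA stood beside let-7 in each line. It was miR-148a-3p in HGC27, with 35.0% of counts against 1.61% in AGS, and miR-372-3p in AGS, with 37.5% against 0.300% in HGC27. The mature sequences are shown because the comparison turns on which members share a seed. They were read from the deposited table and are identical to the RefSeq entries. Capitals mark the seed. The let-7 family carries the seed whose summed share was alike in both lines:
let-7a-5p: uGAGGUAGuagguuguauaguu
let-7b-5p: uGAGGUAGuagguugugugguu
let-7c-5p: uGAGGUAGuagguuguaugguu
let-7d-5p: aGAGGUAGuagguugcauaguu
let-7e-5p: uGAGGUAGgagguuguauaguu
let-7f-5p: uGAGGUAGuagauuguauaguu
let-7g-5p: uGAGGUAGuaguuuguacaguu
let-7i-5p: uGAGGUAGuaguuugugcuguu
miR-98-5p: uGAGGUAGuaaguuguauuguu

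miR-148a-3p and miR-372-3p, which set the lines furthest apart by count, carry other seeds. miR-148a-3p and miR-148b-3p share one, and so do miR-372-3p, miR-373-3p and miR-302b-3p, which belong to clusters typical of pluripotent stem cells:
miR-148a-3p: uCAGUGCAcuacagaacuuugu
miR-148b-3p: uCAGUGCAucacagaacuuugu
miR-372-3p: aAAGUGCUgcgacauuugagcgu
miR-373-3p: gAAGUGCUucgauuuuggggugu
miR-302b-3p: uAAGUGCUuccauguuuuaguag

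The tables held 1296853 miRNA counts for HGC27 and 1527390 for AGS with the positive probe, and 1452832 and 2955078 with the negative probe. The depth of the positive pair was close, but HGC27 listed 609 entries and AGS 361. The 10 largest entries took 78.7% of the HGC27 counts and 91.1% of the AGS counts, and 25 entries made up 90% of the HGC27 counts against 10 in AGS. All values below are shares of the column total. A ratio is the HGC27 share over the AGS share, or its inverse where AGS is higher, and brackets after it give an exact 95% interval from the counts. The intervals cover counting error only, and with 1 library a side no difference can be set against the spread between replicates.

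Of the 159 entries with a ratio, 105 had a share at least 2-fold higher in HGC27 (66% of those compared), 31 at least 2-fold higher in AGS (19.5%) and 23 lay within 2-fold, called alike here (14.5%). An entry could reach the minimum of 100 counts through 1 line only, which favours a call toward that line. The median log2 ratio was 2.50, so an entry of equal share in both lines stood well below the middle of the ratios. TMM scaling of the counts (edgeR) lowered every log2 ratio by 1.86 and DESeq2 size factors lowered it by 1.48. The split was then 71 higher in HGC27, 51 higher in AGS and 37 alike with TMM, and 80, 49 and 30 with DESeq2. The entries higher in HGC27 made up 77.2% of all called entries by shares, 58.2% with TMM and 62.0% with DESeq2. Statements of "alike" below therefore hold for shares of the library and not for every scaling.

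**Figure D1:**
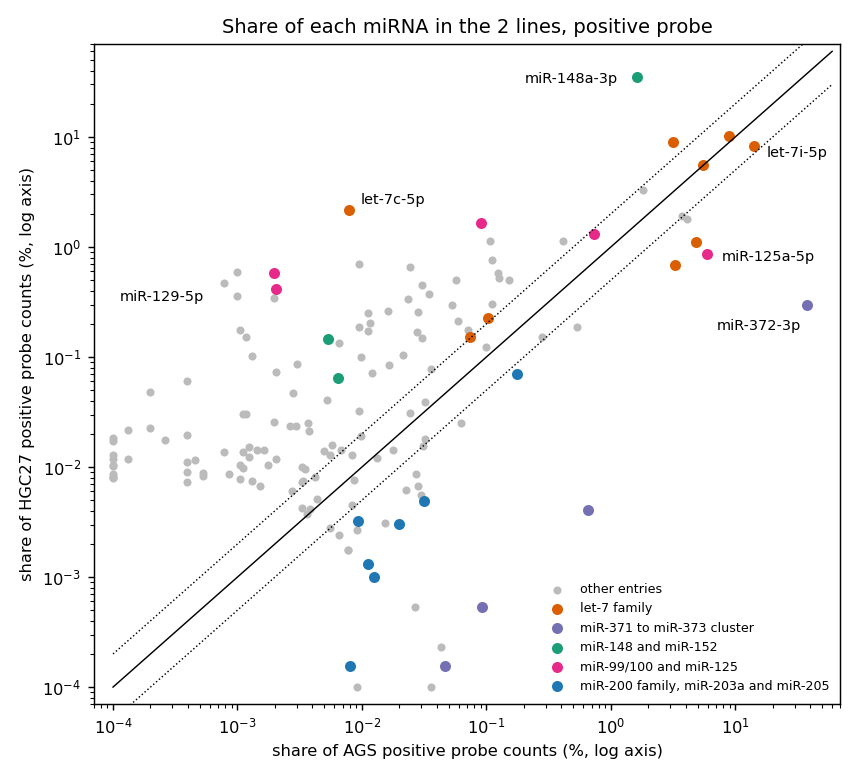
Share of each of the 159 entries with a ratio in the AGS (horizontal, %, log axis) and HGC27 (vertical, %, log axis) positive probe libraries, 1 point an entry, coloured by family; the solid line marks equal shares, the dotted lines a 2-fold difference, and blank entries are drawn at 0.0001%. Most points lie above the lines, several let-7 members lie on the line at the top right, and miR-372-3p (37.5% in AGS) and miR-148a-3p (35.0% in HGC27) lie far to either side.

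The count-weighted picture was less one-sided than the count of entries. The 105 entries higher in HGC27 took 63.6% of its counts, the 31 entries higher in AGS took 57.6% of the AGS counts, and the 23 alike entries took 30.9% and 35.4% in the same order. Summing the smaller of the 2 shares over all entries gave a shared part of 39.5%, and 27.7 percentage points of it were let-7. With the negative probe the shared part was 14.8%, of which let-7 gave 1.18 points. Without let-7, miR-372-3p and miR-148a-3p, and with the rest rescaled, it was 41.4% with the positive and 41.3% with the negative probe.

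Among the 10 largest entries of each positive probe library, 6 were common to both lines. They were let-7a-5p, let-7f-5p, let-7g-5p, let-7i-5p, miR-22-3p and miR-423-5p. With the negative probe 3 were common, miR-148a-3p, miR-7-5p and miR-99b-5p, and none of these 3 is among the 6. Across the 147 entries of the positive pair that were listed in both lines and reached 100 counts, the shares had a rank correlation (Spearman) of 0.414, and the Pearson value of the log shares was 0.520. This is a description across miRNAs of 1 library pair, and the entries are not independent.

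The let-7 family, which restrains growth and is a classical family of tumour suppressor miRNAs, was alike as a sum but not member by member. Its 483204 counts in HGC27 and 610892 in AGS gave a ratio of 0.932 (0.928 to 0.935). On the log2 scale this is -0.10 by shares, -1.96 with TMM and -1.58 with DESeq2, so with either scaling the family sum was at least 2-fold higher in AGS. With the negative probe the family took 8.87% of HGC27 and 1.18% of AGS counts, a 7.53-fold difference. By shares, 4 of its 9 members were higher in HGC27, 3 were alike and 2 were higher in AGS, with a median log2 ratio of 0.19 against 2.50 for all entries. Over all entries compared by shares, 66% were higher in HGC27, 14.5% alike and 19.5% higher in AGS. With TMM or DESeq2 scaling 1 member was higher in HGC27, 3 were alike and 5 were higher in AGS. Over all 159 entries these calls were 71, 37 and 51 with TMM, and 80, 30 and 49 with DESeq2.

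The 3 alike members include let-7i-5p and let-7f-5p, the largest members summed over both lines. let-7g-5p had 71998 counts in HGC27 (5.55%) and 84264 in AGS (5.52%), a ratio of 1.01 (0.996 to 1.02) whose interval holds equality. let-7f-5p had 131386 counts (10.1%) and 135631 counts (8.88%), a ratio of 1.14 (1.13 to 1.15). let-7i-5p had 106451 counts (8.21%) and 216292 counts (14.2%), a share 1.73-fold higher in AGS (1.71 to 1.74). All 3 were at least 2-fold higher in AGS with TMM and with DESeq2, whereas let-7i-5p alone was past 1.25-fold by shares. let-7g-5p lies in an intron of WDR82 on the minus strand (GRCh38, chr3:52268336-52268357), and let-7i-5p in an intron of a long non-coding RNA on the plus strand (chr12:62603691-62603712). let-7f-5p has 2 hairpins, 1 beside let-7a and let-7d on chromosome 9 and 1 in an intron of HUWE1 on chromosome X.

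Other members differed between the lines in opposite directions. let-7c-5p had 28194 counts in HGC27 (2.17%) and 121 in AGS (0.00792%), a ratio of 274.4 (229.6 to 330.9), by far the widest gap in the family. let-7a-5p, with 116918 counts (9.02%) and 48153 (3.15%), was 2.86-fold higher in HGC27 (2.83 to 2.89) by shares, but its log2 ratio of 1.52 became -0.34 with TMM. The less abundant let-7d-5p and miR-98-5p were 2.18-fold and 2.07-fold higher in HGC27 by shares, and both turned to the AGS side with TMM and with DESeq2. In the other direction, let-7b-5p had 14382 counts in HGC27 (1.11%) and 74104 in AGS (4.85%), which is 4.38-fold higher in AGS. let-7e-5p had 8948 (0.690%) and 49613 (3.25%), 4.71-fold higher in AGS. Members of the family differ in a few bases outside the seed, so how the authors' alignment split near-identical reads bears on each single count more than on the sum.

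**Figure D2:**
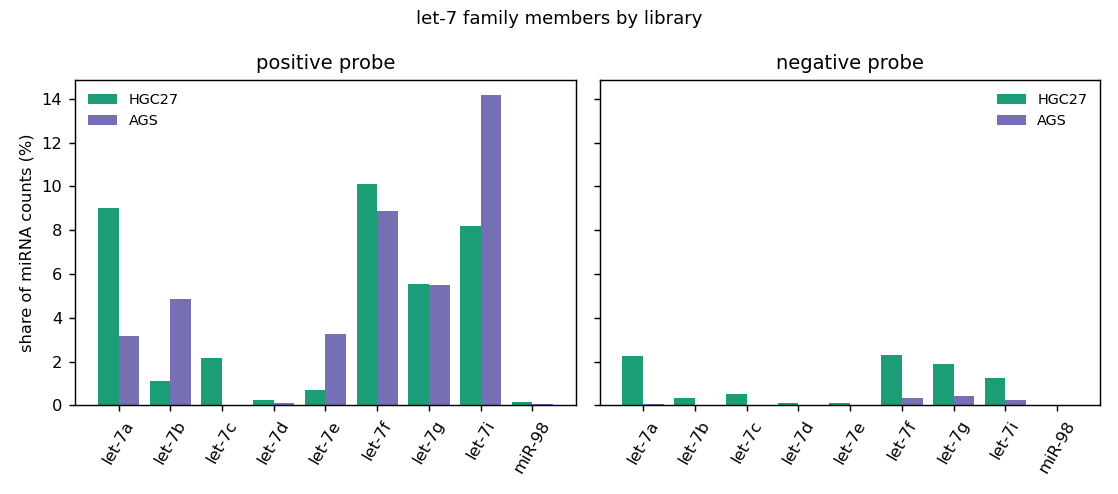
Share of miRNA counts (%, linear axis from 0) of each let-7 family member in HGC27 (green bars) and AGS (purple bars), positive probe on the left and negative probe on the right, 1 library a bar. With the positive probe let-7f and let-7g bars are of nearly equal height, let-7i, let-7b and let-7e are taller in AGS, and let-7a and let-7c in HGC27; with the negative probe every member is taller in HGC27.

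Paralogous hairpins gave a second contrast, because the miR-99/100, let-7 and miR-125 families are encoded side by side at more than 1 place. On chromosome 19, in an intron of SPACA6, lie miR-99b-5p (chr19:51692618-51692639), let-7e-5p (chr19:51692793-51692814) and miR-125a-5p (chr19:51693268-51693291). On chromosome 21, in introns of MIR99AHG, lie miR-99a-5p (chr21:16539101-16539122), let-7c-5p (chr21:16539838-16539859) and 1 of the 2 hairpins of miR-125b-5p. On chromosome 11, in introns of MIR100HG, lie miR-100-5p (chr11:122152275-122152296), 1 of the 3 hairpins of let-7a-5p and the other hairpin of miR-125b-5p. The members outside let-7 fall into a pair of seeds:
miR-125a-5p: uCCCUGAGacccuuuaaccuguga
miR-125b-5p: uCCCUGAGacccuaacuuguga
miR-99a-5p: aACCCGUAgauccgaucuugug
miR-99b-5p: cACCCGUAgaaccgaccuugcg
miR-100-5p: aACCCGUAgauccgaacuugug

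The chromosome 21 members were high in HGC27 and near the lower end of the counts in AGS. miR-99a-5p had 7485 counts in HGC27 and 30 in AGS, a ratio of 293.9 (205.7 to 435.8), close in size to that of its neighbour let-7c-5p. miR-125b-5p had 5373 and 31 counts, a ratio of 204.1 (143.6 to 300.7). miR-100-5p of the chromosome 11 place had 21374 (1.65%) and 1374 (0.0900%), a ratio of 18.3 (17.4 to 19.4). These 4 stayed higher in HGC27 with TMM and with DESeq2, and they were higher in HGC27 with the negative probe too. So were 83.3% of all entries compared with the negative probe. With the positive probe 71 of 159 entries were higher in HGC27 with TMM and 80 with DESeq2.

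The chromosome 19 members did not share this direction. miR-125a-5p had 11296 counts in HGC27 (0.871%) and 91004 in AGS (5.96%), 6.84-fold higher in AGS, next to let-7e-5p at 4.71-fold. miR-99b-5p of the same place had 16992 (1.31%) and 11201 (0.733%), a ratio of 1.79 (1.74 to 1.83) toward HGC27 that is alike by shares and turns to AGS with either scaling. The result by seed was that miR-125 took 1.29% of HGC27 and 5.96% of AGS counts, nearly all of it miR-125a-5p in AGS. The miR-99/100 seed took 3.54% and 0.825%, and its largest member was miR-100-5p in HGC27 and miR-99b-5p in AGS.

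**Figure D3:**
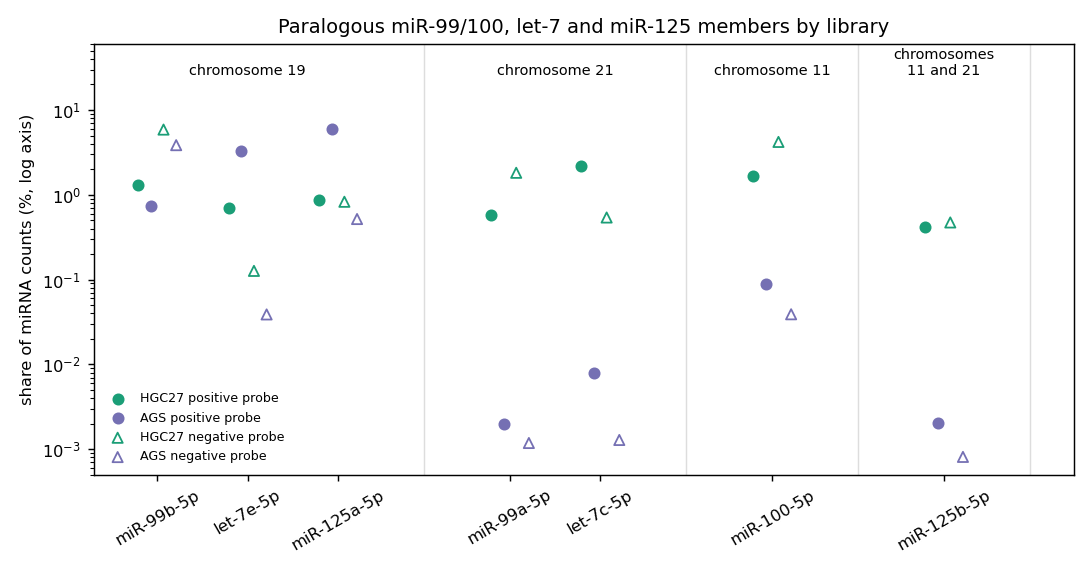
Share of miRNA counts (%, log axis) of the paralogous miR-99/100, let-7 and miR-125 members by chromosome, with HGC27 in green, AGS in purple, filled circles for the positive and open triangles for the negative probe, 1 library a point. On chromosomes 11 and 21 the green points stand above the purple ones with either probe, while on chromosome 19 let-7e-5p and miR-125a-5p are higher in AGS with the positive probe and in HGC27 with the negative probe.

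In 118 seeds with at least 100 counts summed over the pair, 82 were at least 2-fold higher in HGC27 (69.5%), 19 in AGS (16.1%) and 17 were alike (14.4%). Grouping by seed raised the shared part of the positive probe libraries from 39.5% to 49.8%, whereas the negative probe pair stayed at 14.8%. Of 47 seeds with more than 1 entry, 11 had a different largest entry in the 2 lines. A case in point was the miR-10 group. miR-10b-5p had 4490 counts in HGC27 and 30 in AGS, and miR-10a-5p had 1013 and 547. Both lines also listed predicted entries that begin 1 base inside these miRNAs and so carry another seed. Their sum was 0.779% in HGC27 and 0.533% in AGS, alike by shares. The form derived from miR-10b-5p had 7687 counts in HGC27 and 15 in AGS, and the form derived from miR-10a-5p had 2419 and 8124. The shift of the seed is visible in the miR-10a-5p pair (GRCh38, chr17:48579904-48579926, minus strand, in an exon of HOXB4 and an intron of HOXB3):
miR-10a-5p: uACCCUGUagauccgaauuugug
predicted entry: aCCCUGUAgauccgaauuugug

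The entries higher in AGS were led by the miR-371 to miR-373 cluster on chromosome 19, a group known from embryonic stem cells and germ cell tumours. All 4 of its members with a ratio were higher in AGS under all 3 scalings. Among all 159 entries compared, 31 were by shares (19.5%), 51 with TMM and 49 with DESeq2. Apart from miR-372-3p, the members had fewer than 100 counts in HGC27 and reached the minimum only through AGS. miR-372-3p (chr19:53787931-53787953, plus strand) had 3885 counts in HGC27 and 572497 in AGS, 125.1-fold higher in AGS. miR-371a-5p had 53 and 9942 counts, a 159.3-fold difference, and miR-373-3p had 7 and 1404, a 170.3-fold difference. The cluster was higher still in AGS with the negative probe, where it took 81.9% of the counts, against 38.3% with the positive probe.

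The related miR-302 and miR-367 cluster and the primate-specific C19MC cluster each had 1 member with a ratio. miR-302b-3p was blank in HGC27 and had 140 counts in AGS, at least 39.6-fold higher in AGS when the blank is set to 3 counts. A blank in this table can stand for fewer than 2 counts, the lowest count listed. miR-522-3p of C19MC had 7 and 410 counts, 49.7-fold higher in AGS. Outside these clusters, miR-335-3p had 3 counts in HGC27 and 657 in AGS, a HGC27 over AGS ratio of 0.00538 (0.00111 to 0.0158). miR-4664-3p was blank in HGC27 and had 548 counts in AGS, at least 155.1-fold higher.

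The miR-200 family, miR-203a and miR-205 form the classical epithelial list, whose members repress the ZEB factors of epithelial to mesenchymal transition. Over all 159 entries compared, 31 were higher in AGS by shares (19.5%), 51 with TMM and 49 with DESeq2. All 7 members of the epithelial list with a ratio were higher in AGS, under all 3 scalings. Their median log2 ratio was -2.72 by shares, against 2.50 for all entries. Apart from miR-200c-3p, these members had fewer than 100 counts in HGC27 and reached the minimum only through AGS. Their common direction is therefore set in part by that minimum. miR-200c-3p was the most abundant of the list, with 916 counts in HGC27 (0.0706%) and 2699 in AGS (0.177%), 2.50-fold higher in AGS. miR-429 had 13 and 191 counts, a 12.5-fold difference, and miR-203a-3p had 39 and 302, a 6.57-fold difference. The list took 0.0843% of HGC27 and 0.269% of AGS counts. With the negative probe the gap was wider, since it took 0.160% and 2.53%, and miR-200b-3p had 142 AGS counts with the positive and 12532 with the negative probe. miR-192-5p, a miRNA of gut epithelium, had 326 and 959 counts and was 2.50-fold higher in AGS. With the negative probe miR-192-5p had 349 and 832 counts and was alike, at 1.17-fold toward AGS. It was the only 1 of the 3 entries in its list with a ratio.

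miRNAs that are abundant in mesenchymal cells stood on the HGC27 side, as did 66% of all entries compared by shares. miR-143-3p, known from smooth muscle, had 9123 counts in HGC27 (0.703%) and 145 in AGS (0.00949%), a ratio of 74.1 (62.9 to 87.9). miR-199a-5p had 787 and 6 counts, a ratio of 154.5 (70.7 to 422.2), and its paralogue miR-199b-5p had 133 counts in HGC27 and was blank in AGS. The miR-199 and miR-214 list took 0.0887% of HGC27 and 0.00249% of AGS counts, and the miR-143 and miR-145 list 0.705% and 0.00949%. With the negative probe the miR-199 and miR-214 list took 1.12% of HGC27 and 0.00102% of AGS counts. The miR-143 and miR-145 list then took 0.139% and 0.00220%. miR-199a-3p and miR-199b-3p share a mature sequence, and the miR-199 and miR-214 sums hold the counts of both names. Together these names had 116 counts in HGC27 and 30 in AGS with the positive probe, and 15384 and 22 with the negative. The same reads can thus enter those sums under both names. All 10 entries of these lists in the table were listed in at least 1 of the positive probe libraries. Only 2 entries of the miR-199 and miR-214 list and 1 of the miR-143 and miR-145 list had a ratio. Their part in other line differences was not tested.

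The largest ratio among known entries was that of miR-129-5p, with 6085 counts in HGC27 and 12 in AGS, 597.2-fold (341.6 to 1156). miR-9-5p, best known from neurons, followed with 4669 and 15 counts and a ratio of 366.6 (222.0 to 655.5). The blood, muscle, liver and nerve list, fixed as a check for other cell types, took 0.371% of HGC27 and 0.0101% of AGS counts, and miR-9-5p made up nearly all of it in HGC27. Its other entries were low, the highest of them miR-1-3p with 105 and 64 counts. miR-218-5p, which is encoded within the SLIT genes, had 2274 and 16 counts, a ratio of 167.4. miR-196a-5p, encoded like miR-10 within the HOX gene clusters, had 281 and 2 counts, a ratio of 165.5 (45.4 to 1373). miR-708-5p had 624 and 3 counts, a ratio of 245.0 (83.4 to 1191).

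miR-148a-3p (chr7:25949922-25949943, minus strand, outside other annotated genes on that strand) was the largest HGC27 entry. Its 453909 counts in HGC27 and 24595 in AGS gave a ratio of 21.7 (21.5 to 22.0). miR-148b-3p, with the same seed from chromosome 12, had 1882 and 81 counts and a ratio of 27.4 (21.9 to 34.6). The other arm, miR-148a-5p, had 843 and 99 counts and a ratio of 10.0 (8.14 to 12.5). These 3 entries were higher in HGC27 under all 3 scalings and with either probe. By shares, 66% of all entries compared were higher in HGC27 with the positive probe and 83.3% with the negative probe. With the positive probe 71 of 159 entries were so with TMM and 80 with DESeq2.

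Members of several growth-related families were on the HGC27 side by shares, as were 66% of all entries compared. All 7 members with a ratio of the miR-17-92, miR-106a-363 and miR-106b-25 list, which holds well known oncogenic miRNAs, were higher in HGC27 by shares. With TMM or DESeq2 6 were, and miR-92a-3p was the exception, at a log2 ratio of 1.73 by shares and -0.13 with TMM. miR-20a-5p, with 3272 and 171 counts, was 22.5-fold higher, and miR-17-5p, with 954 and 31, was 36.2-fold higher. All 3 members of the miR-183, miR-182 and miR-96 cluster and all 3 tested members of the miR-181 family were higher in HGC27 by shares. With TMM 1 of 3 and 2 of 3 were, and with DESeq2 1 of 3 and 3 of 3. The tested miR-181 members, miR-17-5p, miR-18a-5p, miR-93-5p and miR-363-3p had fewer than 100 counts in AGS. They thus reached the minimum only through HGC27. Of all 159 entries compared, 71 were higher in HGC27 with TMM and 80 with DESeq2. The oncogenic miR-21-5p was not on this side. It had 1962 counts in HGC27 and 4309 in AGS, alike by shares at 1.87-fold toward AGS, and higher in AGS with TMM and DESeq2 together with miR-221-3p and miR-222-3p.

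Of the 29 family and cluster lists, 28 reached 100 counts summed over the pair. By summed share 18 were at least 2-fold higher in HGC27, 5 in AGS and 5 were alike. With TMM the lists split into 11, 9 and 8, and with DESeq2 into 15, 9 and 4. By shares, the 5 higher in AGS were the miR-371 to miR-373, miR-302 and miR-367, C19MC, miR-200 and miR-192 lists. The 5 alike were let-7, miR-99/100 with miR-125, the miR-423 arms, miR-21 with miR-221 and miR-222, and the DLK1-DIO3 cluster, which took only 0.00547% of HGC27 and 0.00275% of AGS counts.

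**Figure D4:**
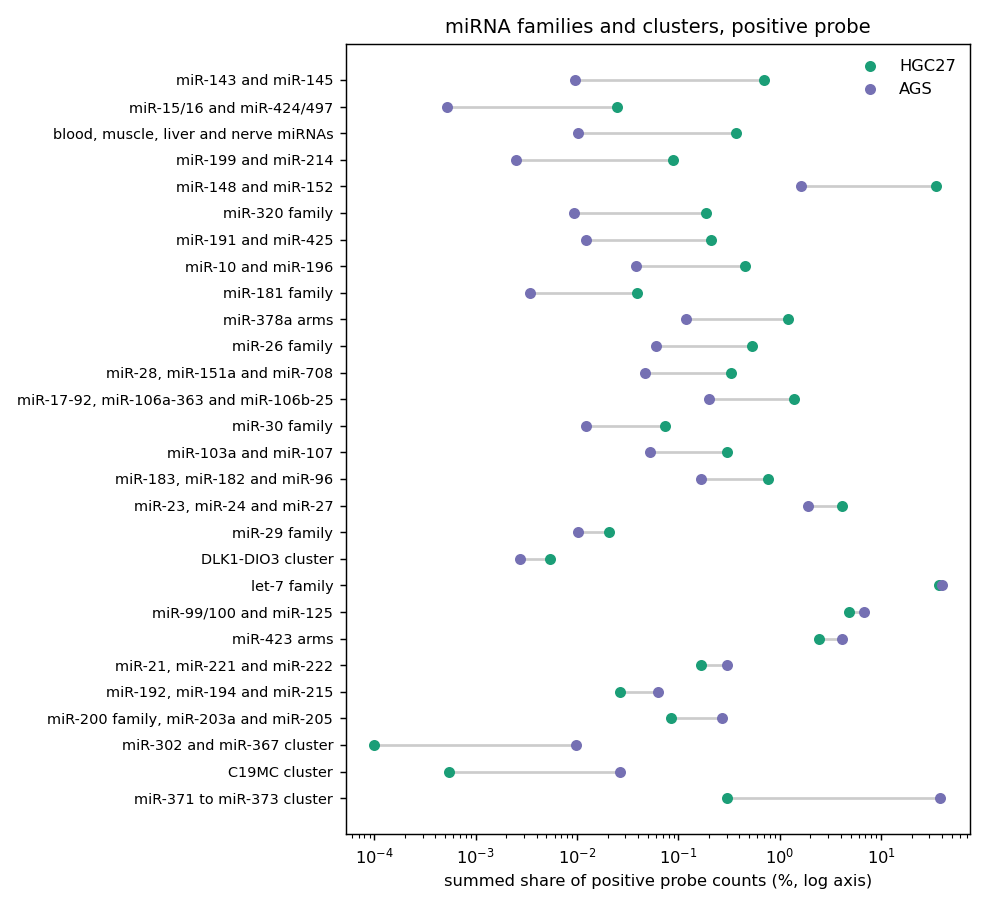
Summed share of positive probe counts (%, log axis) of 28 miRNA families and clusters in HGC27 (green) and AGS (purple), 1 library a point, ordered by the ratio of the lines; the blank sum is drawn at 0.0001%. The let-7 points coincide near 40%, the miR-371 to miR-373 points are furthest apart toward AGS, and 18 lists are at least 2-fold higher in HGC27.

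The 2 arms of the miR-423 hairpin, in an exon of NSRP1 on chromosome 17, went in opposite directions. miR-423-5p (chr17:30117095-30117117) had 23084 counts in HGC27 (1.78%) and 62855 in AGS (4.12%), 2.31-fold higher in AGS. miR-423-3p (chr17:30117131-30117153) had 8538 (0.658%) and 370 (0.0242%), a ratio of 27.2 (24.5 to 30.2) toward HGC27. Within a library the 5p arm thus had more counts than the 3p arm in both lines. With the negative probe both arms were higher in HGC27 and the 3p arm was the larger, with 6183 counts against 660 in HGC27 and 1065 against 259 in AGS. The arms have unrelated seeds:
miR-423-5p: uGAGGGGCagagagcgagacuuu
miR-423-3p: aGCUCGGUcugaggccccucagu

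Neighbours in the genome were compared over hairpins that lie within 10000 bases of each other on 1 strand. Of 12 such clusters with at least 2 tested hairpins, 6 had all tested entries higher in HGC27 and 2 had all higher in AGS, that of miR-200b and miR-429 and that of miR-371 to miR-373. Among all entries 66% were higher in HGC27. With TMM and with DESeq2 3 clusters had all tested entries higher in HGC27 and 4 had all higher in AGS. The miR-99b/let-7e/miR-125a place on chromosome 19 was the only 1 of the 12 with entries called in both directions by shares, since miR-99b-3p was higher in HGC27 while let-7e-5p and miR-125a-5p were higher in AGS. The log2 ratio of miR-99b-3p was 1.29, less than the shift of either scaling, so with TMM or DESeq2 no entry of this place stood on the HGC27 side. The grouping was chosen after these values were seen.

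Entries blank in 1 line were many but small. 323 entries were listed only in HGC27 and 75 only in AGS, but they took 0.330% and 0.0768% of the counts. At 10 counts or more 81 and 12 of them remained, and at 100 counts or more 10 and 2. Those of HGC27 included miR-1299 with 236 counts, miR-181d-5p with 166, miR-363-3p with 152 and miR-204-5p with 136, each at least 53.4-fold higher in HGC27 with the blank set to 3 counts. The same 4 were blank or at most 10 counts in AGS with the negative probe, where HGC27 had between 55 and 436 counts. The 2 of AGS were miR-4664-3p and miR-302b-3p.

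Outside let-7, the alike entries with at least 1000 counts were miR-22-3p, miR-24-3p, miR-99b-5p, miR-21-5p and miR-532-5p. miR-532-5p was the closest of these, with 1603 and 1505 counts and a ratio of 1.25 (1.17 to 1.35). miR-22-3p had 24768 counts (1.91%) and 56773 (3.72%), 1.95-fold toward AGS and so just inside the 2-fold limit. miR-24-3p had 42925 (3.31%) and 27486 (1.80%), 1.84-fold toward HGC27, and turned to AGS with TMM and with DESeq2. miR-98-5p at 2.07-fold stood just outside the limit.

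First bases differed with the largest entries. Counts that begin with U, the base Argonaute favours, made up 87.8% of HGC27 and 55.6% of AGS counts, and miR-372-3p, which begins with A, held 37.5% of the AGS counts. The 5p arms gave 50.4% and 53.1% of the counts.

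The negative probe libraries serve as the background for the line difference, since they came from the same overexpressing lines. In that pair 162 entries had a ratio, of which 135 were higher in HGC27 (83.3%), 16 in AGS (9.88%) and 11 were alike (6.79%), with a median log2 ratio of 3.32. Of 131 entries with a ratio under both probes, 90 were higher in HGC27 with both, which is 98.9% of the 91 so called with the positive and 81.8% of the 110 with the negative probe. Another 14 were higher in AGS with both, 63.6% of 22 and 100% of 14. The line ratios under the 2 probes had a Spearman rho of 0.810 over these 131 entries, given as a description. The line difference was smaller with the positive probe in 85 of the 131.

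The widest changes of the line ratio between the probes ran both ways. let-7b-5p fell by 5.45 on the log2 scale from the negative to the positive probe, and miR-200b-3p was 5.00 higher with the positive one. Of the 18 entries alike with the positive probe, 16 were higher in HGC27 with the negative one (88.9%), as were 110 of all 131 entries. Those 16 include let-7f-5p, let-7g-5p, let-7i-5p, miR-22-3p and miR-24-3p. By shares, 4 entries were higher in AGS with the positive and higher in HGC27 with the negative probe. They were let-7b-5p, let-7e-5p, miR-423-5p and the shifted miR-10a-5p form. let-7b-5p stood at a log2 ratio of -2.13 with the positive and 3.32 with the negative probe. None of the 4 kept opposite calls with TMM or with DESeq2. By shares, no entry went from HGC27 with the positive to AGS with the negative probe. These differences between probes were not tested, as each group was 1 library.

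**Figure D5:**
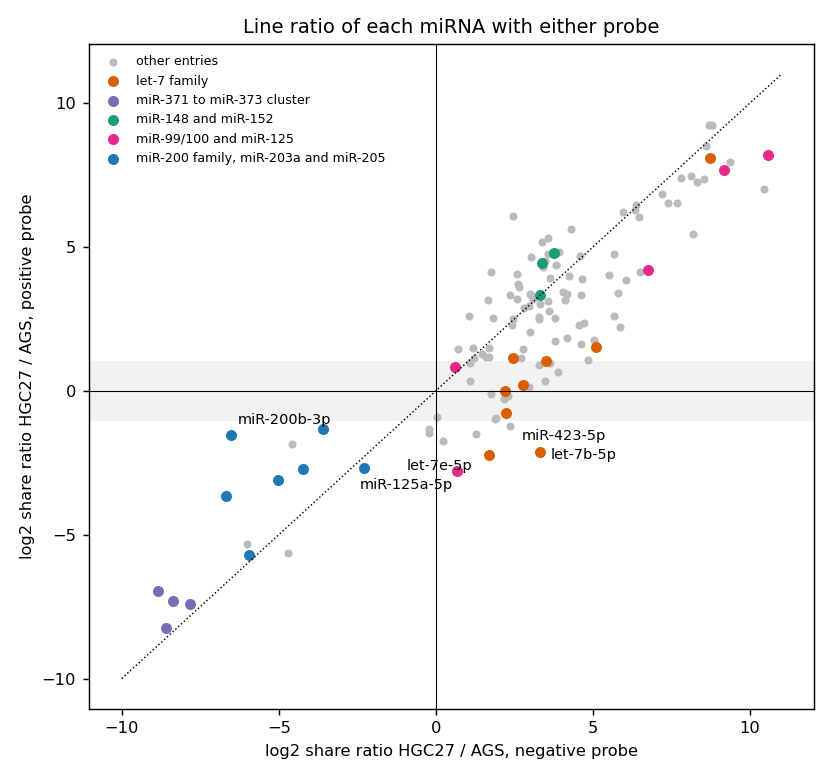
Log2 share ratio of HGC27 over AGS for the 131 entries with a ratio under both probes, negative probe (horizontal) against positive probe (vertical), coloured by family; the grey band marks a 2-fold difference with the positive probe and the dotted line equal ratios. Most points follow the dotted line, the let-7 members lie below it, and let-7b-5p, let-7e-5p and miR-423-5p fall in the lower right, higher in AGS with the positive and in HGC27 with the negative probe.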

How the data were processed

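Small RNA sequencing followed pull-down by the positive or the negative RNA probe in HGC27 and AGS cells overexpressing the FN1 3′-UTR, with 1 library per group. Raw counts of tags were deposited for each mature miRNA with its precursor and, beside them, the authors deposited a score, normalized tags per 1000000 rounded to whole numbers. The submitters' processing notes name cutadapt 1.9.3, Novoalign 3.02.12 and hg38, and the miRNA database release is not given in the sources used here.

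The 901 rows were collapsed to 843 names, as a mature miRNA with several precursors repeats its count. Blanks were set to 0, and to 3 counts in a ratio. 45 entries share a sequence with another name. Column totals were 46.9% (HGC27) and 35.7% (AGS) of the divisors that the positive probe scores imply, so shares refer to the table and not to all tags. Ratios of shares with exact binomial 95% intervals were computed in Python 3.11.15 with scipy 1.17.1 for entries of at least 100 summed counts, called at 2-fold, and the intervals were tested on simulated data. No p-value was computed. TMM (edgeR 4.0.16) and DESeq2 1.42.0 gave scaling factors for all 4 libraries, computed separately for the positive and the negative probe pair. Scaled line ratios of the 2 probes therefore do not rest on a common scale. Named miRNAs were the 10 largest shares per line, the 10 highest and lowest ratios, entries above 100 counts in 1 line only, the 10 ratios nearest to 1 above 1000 counts, list members and 4 markers (let-7i-5p, let-7f-5p, miR-423-5p, miR-125a-5p); others named, the miR-10 forms and miR-99b-3p among them, were chosen after their values were seen. Members, lists and rules were chosen with earlier results of these data known. Positions and sequences come from RefSeq (GRCh38.p14), where 513 of 570 known names matched, and gene context from GENCODE 29.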

Additional observations from a re-analysis of the deposited data

Results flagged for a closer look

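Of the 131 entries with a ratio under both probes, 9 had line ratios on opposite sides of equality with the positive and the negative probe, each beyond its counting interval. Each group was 1 library, so these differences between the probes were not tested. The log2 ratio of HGC27 over AGS with the positive minus that with the negative probe was -5.45 for let-7b-5p, -3.94 for let-7e-5p and -3.03 for let-7i-5p. It was -3.58 for miR-423-5p, -3.45 for miR-125a-5p and -2.87 for miR-22-3p. For miR-221-3p it was -2.46, for miR-769-5p -2.87, and for the shifted miR-10a-5p form, a predicted entry, -2.78. All 9 stood on the AGS side of equality with the positive and on the HGC27 side with the negative probe. Only 4 of them were past 2-fold with both probes. With TMM or DESeq2 scaling 1 of the 9, let-7b-5p, kept opposite signs, at log2 ratios of -3.99 with the positive and 0.59 with the negative probe under TMM. The other 8 were then on the AGS side with both probes.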

How the results depend on the processing

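No paired analysis was possible because with 1 library in every group nothing could be matched, and no library could be left out for the same reason. Counts are given as higher in HGC27, higher in AGS and alike. TMM gave 71, 51 and 37 and DESeq2 80, 49 and 30, against 105, 31 and 23 by shares. A minimum of 10 counts gave 251, 49 and 48, one of 1000 counts 47, 10 and 8, and no minimum 305, 57 and 322, as more or fewer entries entered. At a 4-fold limit 52 were alike. Among named entries called by shares, the log2 ratio turned to AGS with TMM for let-7a-5p (-0.34), miR-98-5p (-0.81), miR-10a-5p (-0.73), let-7d-5p (-0.73), miR-92a-3p (-0.13), miR-30a-5p (-0.73), miR-30d-5p (-0.37) and miR-28-3p (-0.36), and with DESeq2 for miR-98-5p (-0.43), miR-10a-5p (-0.36), let-7d-5p (-0.35) and miR-30a-5p (-0.35). Another 7 named entries that were alike by shares turned to AGS with both scalings: let-7f-5p, let-7g-5p, miR-24-3p, miR-532-5p, miR-99b-5p, miR-29a-3p and miR-1-3p.

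The shared part of 39.5% became 59.8% without miR-372-3p and miR-148a-3p, 39.6% with known miRNAs only and 46.1% with repeated precursor rows kept. By the deposited score the log2 ratios of the summed lists were 0.29 for let-7, -6.58 for miR-371 to miR-373, 4.83 for miR-148 with miR-152 and -0.10 for miR-99/100 with miR-125. Without the largest 2 miRNAs they were -0.19 for let-7 and -0.58 for miR-99/100 with miR-125, and with known miRNAs only -0.092 for let-7. The scalings were applied to these sums after the data were seen. In the order of the 4 lists above, TMM gave -1.96, -8.83, 2.58 and -2.35 and DESeq2 -1.58, -8.45, 2.96 and -1.97. Of the lists, 18 were higher in HGC27, 5 in AGS and 5 alike by shares, 11, 9 and 8 with TMM, and 15, 9 and 4 with DESeq2.

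Called the same with both probes were 106 entries by shares, 70 with DESeq2, 222, 47 and 306 at a minimum of 10, 1000 and no counts. Opposite calls, 4 by shares, were 2 with TMM and without the largest 2 miRNAs, 1 with DESeq2 and at 4-fold, 7 at a minimum of 10 counts and 15 without one. With TMM and with DESeq2 these were other entries than the 4 by shares. Of those 4, let-7b-5p was then within 2-fold with the negative probe, at log2 ratios of 0.59 and 0.71. The others were on the AGS side with both probes. Entries alike with the positive probe alone, 16 by shares, were 10 without the largest 2 miRNAs, 28, 6 and 110 at a minimum of 10, 1000 and no counts, and 25 at 4-fold. Predicted entries, blanks and counts near 100 are limited by depth. Replicate spread is unknown.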
